A study of Homo sapiens with 6 samples.

Results

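The peroxiredoxins and thioredoxins form a thiol-based system for the removal of peroxides, and 10 of its genes were followed here in A2780 cells treated with TH588, an inhibitor of the nucleotide pool enzyme MTH1. The genes were taken by symbol from the deposited count table of 58336 genes. They comprise the peroxidases *PRDX1*, *PRDX2*, *PRDX3*, *PRDX4*, *PRDX5* and *PRDX6*, the thioredoxins *TXN* and *TXN2*, the mitochondrial thioredoxin reductase *TXNRD2*, and *TXNIP*, which encodes an inhibitor of thioredoxin. All 10 were found, and all 10 passed the filter on low counts that left 15844 genes to be tested.

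A2780 is an established ovarian cancer cell line. The 3 control libraries came from A2780 cultures given the DMSO vehicle. The 3 treated libraries came from A2780 cultures given TH588 (TH-588 in the labels) at 6 µM for 48 h. In each group the libraries are marked as replicates A, B and C. The labels name no allele or transgene in either group, and a single line was used, so the values hold for A2780 cells at this TH588 dose and treatment time. No treatment time is given in the labels for the DMSO cultures, and the part of culture time in the results was not tested. Libraries held 28537837 to 99074175 counts, TH588 replicate A being the shallowest, with 21.9% of its counts from the small nucleolar RNA *SNORD3A*. In a bulk library, fewer cells that express a gene and less RNA per cell cannot be told apart. Of 10 epithelial and Müllerian markers, 8 fell below the filter on low counts, with at most 15 counts in any library, *PAX8* and *WT1* among them. *KRT18* (3.14 to 3.86 CPM with DMSO) and *EPCAM* (0.497 to 0.886 CPM with DMSO) were detected, and both were higher with TH588. Of 4 leukocyte markers only *CD14* was tested, at up to 0.411 CPM and higher with TH588, and none of the 3 endothelial markers passed the filter. All 4 fibroblast markers passed, with *DCN* at 6.96 to 7.01 CPM with DMSO, and *COL1A2* was higher with TH588. The part of these markers in the results below was not tested.

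Peroxiredoxins reduce hydrogen peroxide and organic peroxides through a reactive cysteine. In the 2-Cys enzymes the oxidized cysteine forms a disulfide that thioredoxin reduces, thioredoxin is reduced in turn by thioredoxin reductase, and the electrons come from NADPH. PRDX1, PRDX2, PRDX6 and thioredoxin (TXN) act largely in the cytosol, PRDX4 in the endoplasmic reticulum, PRDX3, thioredoxin 2 (TXN2) and thioredoxin reductase 2 in mitochondria, and PRDX5 in mitochondria, peroxisomes and the cytosol. TXNIP binds the active site of thioredoxin, and its gene is known for its sharp response to glucose metabolites.

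After TH588 the inhibitor *TXNIP* rose to 4.16 times its DMSO level and *PRDX5* to 1.97 times, while *TXN* fell by 40.9%. Of the 10 genes, 3 were higher (*TXNIP*, *PRDX5* and *PRDX2*), 4 were lower (*TXN*, *PRDX1*, *PRDX4* and *TXNRD2*), and the changes of *PRDX3*, *PRDX6* and *TXN2* did not pass an adjusted p under 0.05 in edgeR's quasi-likelihood test. That is 7 of 10, against 49.6% of all genes tested, with 24.2% of all genes higher and 25.3% lower. The median log2 fold change was -0.22 over the 10 genes and 0.02 over all genes tested. With library size as the only scaling, the median over all genes was 0.13 and 60.4% of called genes were higher, against 48.9% here. Values below are CPM, a gene's counts scaled to the TMM-normalized library size, and 3 values in a row stand for replicates A, B and C in that order. The p-values printed were adjusted over all 15844 genes (Benjamini-Hochberg). For 1 gene in 3 against 3 libraries, the smallest p of an exact permutation test is 0.1.

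**Figure D1:**
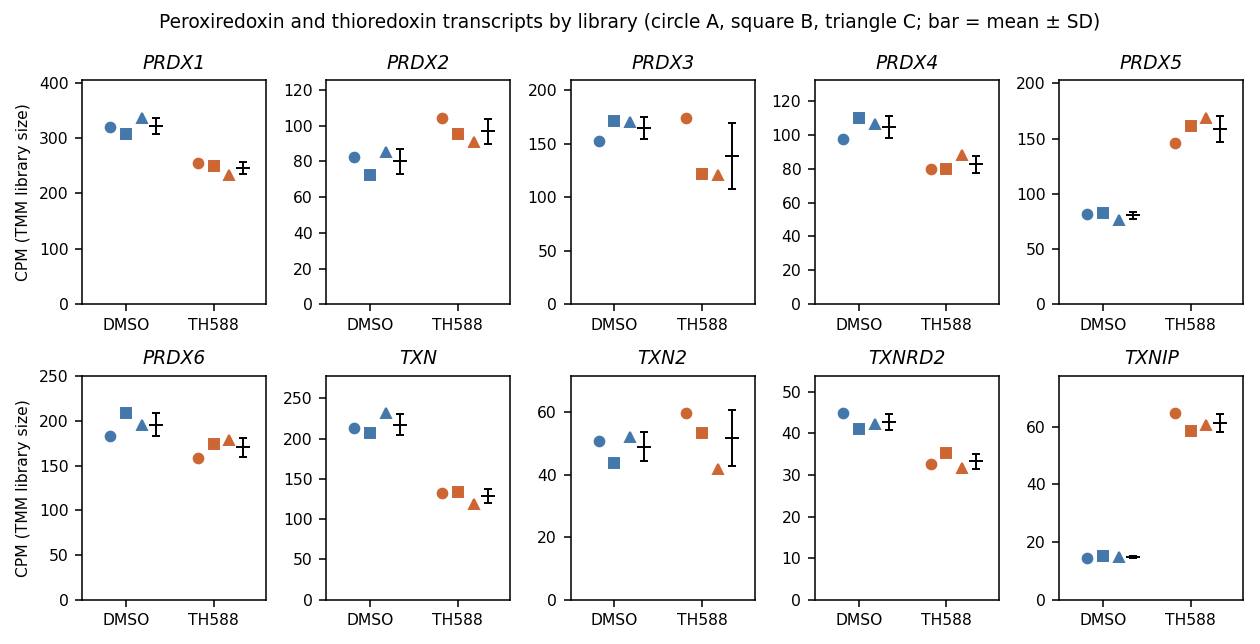
CPM on the TMM library size (vertical axis, from 0) of each of the 10 genes in the DMSO (blue) and TH588 (orange) libraries, with circles, squares and triangles for replicates A, B and C and black bars for the mean ± SD (n = 3). *TXNIP* and *PRDX5* stand well apart between the groups, at 14.6 to 14.99 against 58.6 to 64.7 CPM and at 76.7 to 82.7 against 146.1 to 169.0 CPM, whereas the groups of *PRDX3* and *TXN2* overlap.

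*TXNIP* (ENSG00000265972) lies on the minus strand of chromosome 1 of GRCh38, from 145992435 to 145996600, and no exon of another gene in the table overlaps its exons. It was measured at 14.6, 14.99 and 14.6 CPM with DMSO and at 64.7, 58.6 and 60.6 CPM with TH588. The treated libraries were thus all far above the controls, and the controls lay close together. The log2 fold change was 2.06 (standard error, SE, 0.08, 95% interval 1.88 to 2.24, edgeR adjusted p = 1.40e-08). A total of 402 genes, *TXNIP* included, had a rise at least as large. *TXNIP* remained called in each of the 15 alternatives run, with log2 fold changes between 2.03 and 2.16.

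The closest paralog of *TXNIP* among the alpha-arrestins, *ARRDC4*, rose further. It went from 3.69, 2.98 and 3.40 CPM with DMSO to 23.7, 20.4 and 25.6 CPM with TH588, so that the lowest treated library held several times the highest control. Its log2 fold change was 2.79 (SE 0.13, edgeR adjusted p = 2.72e-08). The other alpha-arrestins, adaptors that couple ubiquitin ligases to membrane proteins, rose less. *ARRDC1* and *ARRDC3* had log2 fold changes of 0.50 each (edgeR adjusted p = 0.00213 and 0.000906), and *ARRDC2* one of 1.12 (edgeR adjusted p = 0.000689). *ARRDC5* had at most 1 count in a library and was not tested.

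The *TXNIP* and *ARRDC4* promoters are given because these 2 paralogs rose together, and that of *TXN* because it fell the most among the 10 genes. Each is the 250 bases before a RefSeq start site (GRCh38.p14), written 5′ to 3′. Capitals mark matches, on either strand, to CCAAT (found in 32% of all 35116 promoters of this length), to CACGTG (6.34%), to TATAAA (10.7%) and to a pair of CACGNG letters with 5 bases between them (16 promoters, 0.0456%). CACGTG is one form of CACGNG.
TXNIP, chr1:145996580-145996829, minus strand: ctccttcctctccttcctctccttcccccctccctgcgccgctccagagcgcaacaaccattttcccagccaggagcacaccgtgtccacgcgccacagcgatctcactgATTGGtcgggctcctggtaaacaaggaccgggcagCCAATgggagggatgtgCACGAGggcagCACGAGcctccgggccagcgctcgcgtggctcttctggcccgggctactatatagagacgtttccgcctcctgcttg
ARRDC4, chr15:97960453-97960702, plus strand: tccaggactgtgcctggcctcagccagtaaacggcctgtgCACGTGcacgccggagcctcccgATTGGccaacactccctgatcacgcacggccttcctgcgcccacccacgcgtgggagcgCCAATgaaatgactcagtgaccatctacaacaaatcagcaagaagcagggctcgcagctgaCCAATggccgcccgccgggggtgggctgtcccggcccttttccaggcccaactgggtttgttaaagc
TXN, chr9:110256508-110256757, minus strand: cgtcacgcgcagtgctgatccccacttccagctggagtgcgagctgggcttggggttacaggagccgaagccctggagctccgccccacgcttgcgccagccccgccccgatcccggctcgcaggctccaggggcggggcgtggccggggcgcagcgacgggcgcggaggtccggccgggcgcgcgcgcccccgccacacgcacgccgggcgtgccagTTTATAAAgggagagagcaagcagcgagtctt

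The *TXNIP* window held the spaced CACGNG pair and 2 CCAAT letters, one on each strand. The *ARRDC4* window held no such pair, but 1 CACGTG and 3 CCAAT letters. In the *TXN* window the letters TTTATAAA matched TATAAA on both strands, which overlap. The spaced pair was searched for with the *TXNIP* sequence already in view. Of the 10 genes, 7 had an entry, 11 start sites in all, and the entries of *PRDX3* and *PRDX4* each held 1 CACGTG. A core antioxidant response element (TGACNNNGC, in 10.9% of promoters) was found at none of the 11. *TXNRD1*, which is outside the 10 genes, held 1 such core at each of its 2 start sites. A second *TXNIP* start site held none of the motifs searched, and 1 of 3 *TXNRD2* entries held TATAAA. *PRDX1*, *PRDX6* and *TXN2* had no entry. These matches describe letters, not bound sites.

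MondoA (*MLXIP*) and ChREBP (*MLXIPL*) are the glucose-responsive factors known to switch on *TXNIP* and *ARRDC4* together with their partner MLX, and their transcripts moved in opposite directions. *MLXIPL* rose from 6.10 ± 0.360 to 11.1 ± 1.49 CPM (mean ± SD, n = 3 per group), or on the log2 scale a change of 0.86 (edgeR adjusted p = 0.000153). The more abundant *MLXIP* fell from 43.3 ± 1.88 to 29.7 ± 3.48 CPM (mean ± SD, n = 3 per group), or on the log2 scale a change of -0.54 (edgeR adjusted p = 0.000586). *MLX* did not pass the threshold, at 63.7 ± 1.93 and 62.7 ± 1.64 CPM (SD, n = 3 each; edgeR adjusted p = 0.811). *SLC2A1*, which encodes the glucose transporter GLUT1 that TXNIP is known to draw from the cell surface, fell from 78.1 ± 2.26 to 34.9 ± 2.68 CPM (SD, n = 3 each; log2 fold change -1.16, edgeR adjusted p = 4.72e-07).

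**Figure D2:**
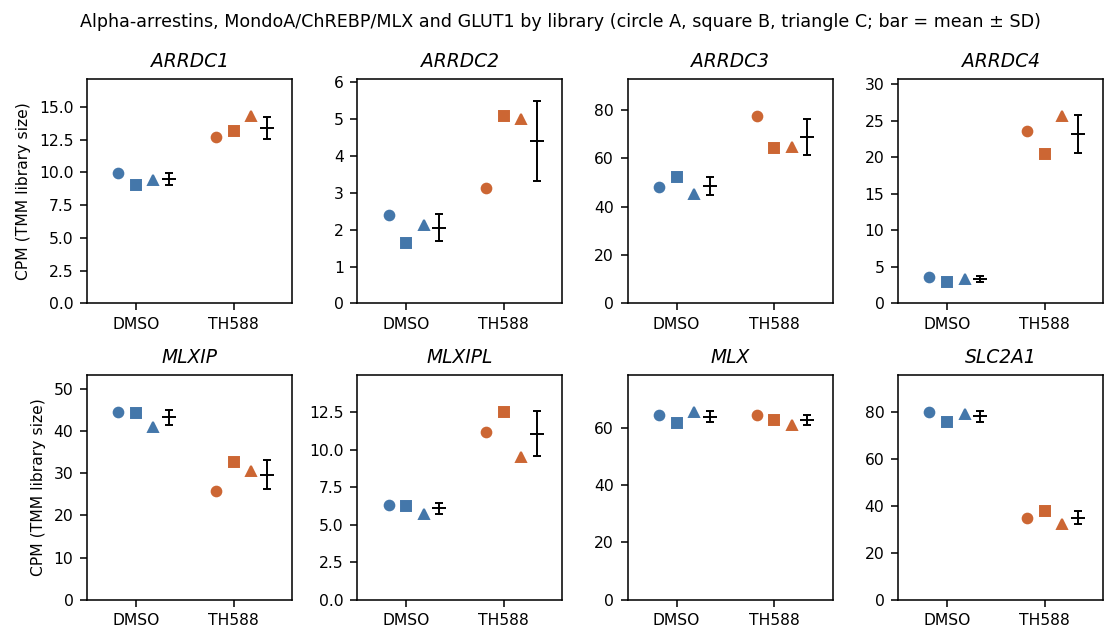
CPM on the TMM library size (vertical axis, from 0) of 4 alpha-arrestins, the glucose-responsive factors *MLXIP*, *MLXIPL* and *MLX*, and *SLC2A1* in the DMSO (blue) and TH588 (orange) libraries, with circles, squares and triangles for replicates A, B and C and bars for the mean ± SD (n = 3). *ARRDC4* shows the largest relative gap of the 8 genes, 2.98 to 3.69 against 20.4 to 25.6 CPM, *SLC2A1* and *MLXIP* were lower with TH588, and the groups of *MLX* overlap.

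Among the thioredoxins, *TXN* fell and *TXN2* did not change detectably. *TXN* (ENSG00000136810), on the minus strand of chromosome 9 from 110243811 to 110256640, was at 212.9, 206.9 and 231.9 CPM with DMSO and at 132.9, 134.3 and 118.3 CPM with TH588. Every treated library was below every control. The log2 fold change was -0.76 (SE 0.08, 95% interval -0.94 to -0.58, edgeR adjusted p = 1.39e-05), and it stayed between -0.80 and -0.66 in the 15 alternatives. Of the *TXN* pseudogenes in the table, *TXNP6* had at most 52 counts in a library and *TXNP4* at most 8, against 3557 to 21723 for *TXN*, and the others had 0. The handling of reads that match several places is not known. Low pseudogene counts, here and for the peroxiredoxins below, thus do not show that the parent gene lost no reads.

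*TXN2* (ENSG00000100348), on the minus strand of chromosome 22 from 36467036 to 36482030, was at 51.0, 43.7 and 52.2 CPM with DMSO and 59.8, 53.3 and 41.9 CPM with TH588. The groups overlapped, with the highest and the lowest of all 6 values both among the treated libraries. The log2 fold change was 0.07 (95% interval -0.19 to 0.34, edgeR adjusted p = 0.645), and it changed sign when DMSO replicate B (-0.0045) or TH588 replicate A (-0.028) was left out. Whether *TXN* and *TXN2* differed in their response was not tested.

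The thioredoxin reductases are selenoproteins that return thioredoxin to its reduced form. *TXNRD2* (ENSG00000184470), on the minus strand of chromosome 22 from 19875517 to 19941992, was at 44.9, 41.1 and 42.3 CPM with DMSO and at 32.8, 35.3 and 31.7 CPM with TH588. The groups did not overlap, and the log2 fold change was -0.36 (SE 0.08, edgeR adjusted p = 0.00306). With library size as the only scaling it was -0.26 and no longer passed (edgeR adjusted p = 0.0834). The cytosolic reductase *TXNRD1*, which is not among the 10 genes, fell by a like amount, from 155.0 ± 5.52 to 118.8 ± 5.72 CPM (mean ± SD, n = 3 per group), or on the log2 scale a change of -0.38 (edgeR adjusted p = 0.00123). The third reductase, *TXNRD3*, did not pass, at 0.12 on the log2 scale (edgeR adjusted p = 0.365).

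Of the 6 peroxiredoxins, *PRDX5* and *PRDX2* rose, *PRDX1* and *PRDX4* fell, and *PRDX3* and *PRDX6* did not pass. *PRDX5* (ENSG00000126432), on the plus strand of chromosome 11 from 64318088 to 64321811, encodes the atypical 2-Cys enzyme, which forms its disulfide within one subunit. It was at 82.0, 82.7 and 76.7 CPM with DMSO and at 146.1, 161.0 and 169.0 CPM with TH588. The lowest treated library was well above the highest control. The log2 fold change was 0.98 (SE 0.08, 95% interval 0.80 to 1.16, edgeR adjusted p = 1.49e-06), and it stayed between 0.95 and 1.09 in the 15 alternatives. Its pseudogene *PRDX5P1* had 0 counts, and no other gene's exons overlap it.

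The typical 2-Cys enzymes work as dimers, with the disulfide formed between the subunits. *PRDX1* (ENSG00000117450), on the minus strand of chromosome 1 from 45511036 to 45523047, was at 319.6, 307.6 and 336.8 CPM with DMSO and at 254.5, 249.8 and 233.9 CPM with TH588. It fell by 23.4% without overlap between the groups, a log2 fold change of -0.39 (SE 0.08, edgeR adjusted p = 0.00127). Exons of *MMACHC* on the opposite strand overlap 24.9% of the *PRDX1* exon bases. *MMACHC* had 278 to 1362 counts in a library, against 6811 to 31543 for *PRDX1*. The library kit does not record strand, and the handling of reads in shared exons is not known. These counts thus cannot show whether *PRDX1* lost or gained reads there.

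*PRDX4* (ENSG00000123131), the peroxiredoxin of the secretory pathway, lies on the plus strand of chromosome X from 23664262 to 23686399. It was at 97.5, 110.1 and 106.3 CPM with DMSO and at 79.8, 79.6 and 88.3 CPM with TH588. All treated libraries were below the controls, and the log2 fold change was -0.34 (SE 0.08, edgeR adjusted p = 0.00430), or -0.24 with library size as the only scaling, where it no longer passed (edgeR adjusted p = 0.0917).

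*PRDX2* (ENSG00000167815), on the minus strand of chromosome 19 from 12796820 to 12801859, was the typical 2-Cys enzyme that rose. It was at 82.5, 72.3 and 85.3 CPM with DMSO and at 104.6, 95.4 and 90.8 CPM with TH588. The groups did not overlap, but the highest control and the lowest treated library were close. The log2 fold change was 0.27 (SE 0.09, edgeR adjusted p = 0.0228). Without DMSO replicate B, the lowest control, it was 0.20 and did not pass (edgeR adjusted p = 0.141). An antisense gene whose exons overlap 14.1% of the *PRDX2* exon bases had 0 counts in every library. This does not show that the gene was silent, because the handling of reads in shared exons is not known.

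*PRDX3* (ENSG00000165672), the mitochondrial typical 2-Cys enzyme on the minus strand of chromosome 10 from 119167703 to 119178833, depended on 1 library. It was at 152.7, 171.0 and 170.3 CPM with DMSO and at 174.3, 121.4 and 120.7 CPM with TH588. The treated library A was thus the highest of all 6 libraries, while the other treated libraries were below every control. The log2 fold change was -0.25 (95% interval -0.53 to 0.03, edgeR adjusted p = 0.129), and -0.16 with library size as the only scaling. Without TH588 replicate A it was -0.43 and passed (edgeR adjusted p = 0.000599). That library was also the shallowest, and the part of its depth in this was not tested. The pseudogenes *PRDX3P1* and *PRDX3P2* had at most 37 counts in a library.

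*PRDX6* (ENSG00000117592), the 1-Cys enzyme that relies on glutathione rather than thioredoxin, lies on the plus strand of chromosome 1 from 173477266 to 173488807. It was at 182.9, 208.8 and 195.1 CPM with DMSO and at 158.0, 173.9 and 178.8 CPM with TH588. The treated libraries were all below the controls, with a log2 fold change of -0.20 (95% interval -0.38 to -0.02, before adjustment). It did not pass the adjusted threshold (edgeR adjusted p = 0.0651), nor in any of the 15 alternatives. With library size as the only scaling the log2 fold change was -0.092 (edgeR adjusted p = 0.539).

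**Figure D3:**
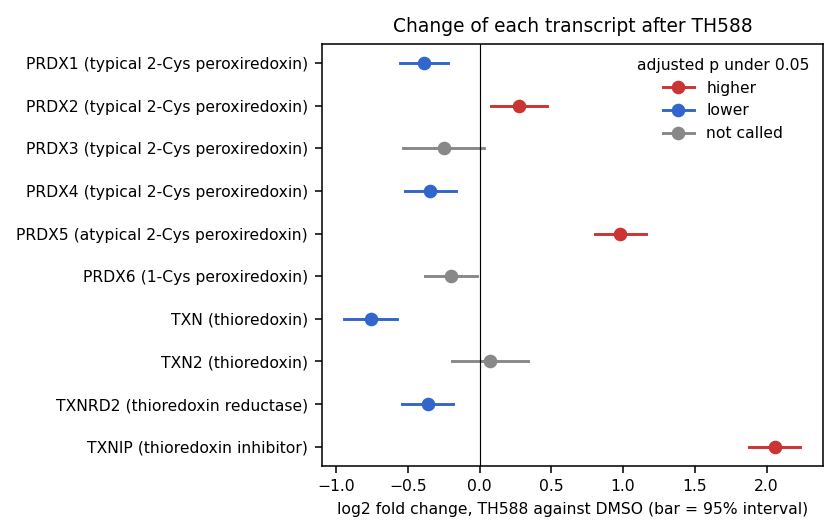
Log2 fold change of each gene after TH588 against DMSO (horizontal axis), with its 95% interval from edgeR's fit as a bar, ordered by role and coloured by whether the adjusted p was under 0.05. *TXNIP* (2.06) and *PRDX5* (0.98) lie farthest to the right and *TXN* (-0.76) farthest to the left, and the intervals of *PRDX3* and *TXN2* include 0.

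Levels were compared between genes per length, as RPKM, the CPM divided by the exon length in kilobases. Other genes overlap 24.9% of the *PRDX1* and 14.1% of the *PRDX2* exon bases. How reads in shared exons were counted is not given in the sources used here. The RPKM of these genes may thus be too low or too high, and the place of *PRDX1* beside *TXN* and *PRDX5* is uncertain in both groups. With DMSO the order was *PRDX1* (211.1 ± 9.64 RPKM), *TXN* (190.2 ± 11.4), *PRDX5* (90.1 ± 3.66), *PRDX6* (82.6 ± 5.47), *PRDX4* (55.0 ± 3.38), *PRDX3* (48.2 ± 3.03), *PRDX2* (38.2 ± 3.26), *TXN2* (23.9 ± 2.24), *TXNRD2* (5.11 ± 0.233) and *TXNIP* (4.06 ± 0.0620 RPKM; SD, n = 3 for each). The libraries of *PRDX1* and *TXN* overlapped, as did those of *PRDX5* and *PRDX6*, and the other neighbours did not. *PRDX1* and *TXN* were above 99% and 98.9% of the genes tested in DMSO level, and *TXNIP* above 61.3%.

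With TH588, *PRDX5* (177.7 ± 13.0 RPKM) and *PRDX1* (161.7 ± 7.10 RPKM) were the highest and overlapped, followed by *TXN* (112.5 ± 7.77 RPKM; SD, n = 3 for each). *PRDX2*, *PRDX4* and *PRDX3* came next after *PRDX6*, and each overlapped the next in that order. *TXNIP* (16.9 ± 0.864 RPKM) moved ahead of *TXNRD2* (3.97 ± 0.223 RPKM; SD, n = 3 each). By CPM, which does not allow for the short *PRDX5* exons of 893 bases, *PRDX5* was in place 6 with DMSO rather than place 3, and in place 3 with TH588 rather than place 1, where *PRDX1* came first and *TXN* was in place 5.

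The summed RPKM of the 6 peroxiredoxins was 514.4, 525.3 and 536.0 with DMSO and 540.5, 540.7 and 543.5 with TH588. The treated sums were all slightly above the controls, and the make-up of the sum differed more. *PRDX5* made up 16.0% to 17.8% of the sum with DMSO and 30.3% to 34.8% with TH588. *PRDX1* made up 38.5% to 41.3% with DMSO and 28.3% to 30.9% with TH588. The RPKM ratio of *TXNIP* to *TXN* was 0.0216, 0.0228 and 0.0199 with DMSO and 0.153, 0.137 and 0.161 with TH588. These sums and ratios restate the changes of their members and were not tested. The sum and the shares carry the uncertainty of the *PRDX1* and *PRDX2* levels from exons shared with other genes.

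**Figure D4:**
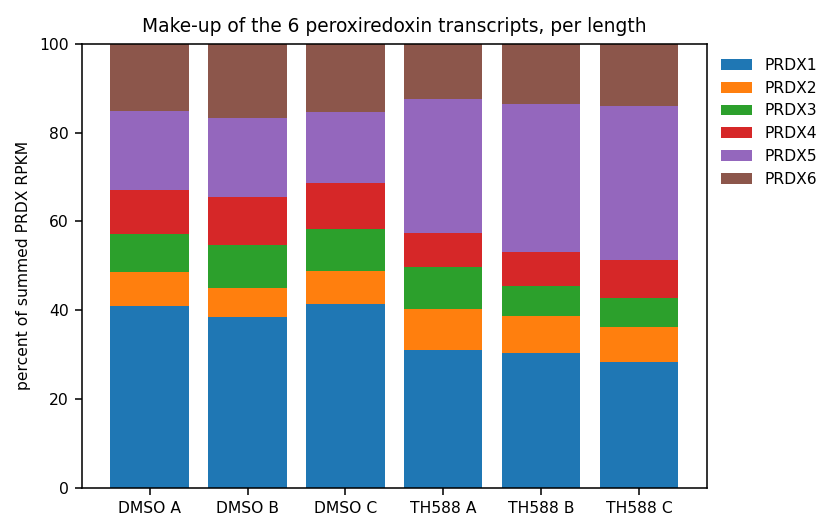
Share of each peroxiredoxin in the summed RPKM of the 6 (vertical axis, percent) in each library. *PRDX5* takes 16.0% to 17.8% with DMSO and 30.3% to 34.8% with TH588, while *PRDX1* goes from 38.5% to 41.3% down to 28.3% to 30.9%. The shares are uncertain where exons are shared with other genes, as for *PRDX1* and *PRDX2*.

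Other genes of thiol redox metabolism were followed through 7 lists with 65 genes, of which 60 could be tested. Of these, 14 were higher and 30 were lower (73.3% called, against 49.6% of all genes), with a median log2 fold change of -0.25. With library size as the only scaling, 15 were higher and 20 lower. Among 6 reductases and peroxiredoxin partners, the sestrins, stress-induced proteins linked to peroxiredoxin recycling that include known p53 targets, all rose, with log2 fold changes of 2.08 for *SESN1*, 1.82 for *SESN2* and 1.78 for *SESN3*. *SRXN1*, which encodes the sulfiredoxin that repairs overoxidized typical 2-Cys enzymes, was scarce, at 0.408 ± 0.0496 and 0.605 ± 0.196 CPM (SD, n = 3 each; edgeR adjusted p = 0.271). Exons of another gene, which had 0 counts in every library, overlap 85% of its exon bases, so its level is uncertain.

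Of 17 thioredoxin-fold relatives tested, 12 were lower and none was higher, against 25.3% and 24.2% of all genes, and the median was -0.36 on the log2 scale. The largest falls were those of the membrane-bound endoplasmic reticulum oxidoreductases *TMX4* and *TMX1* (log2 fold change -0.77 each; edgeR adjusted p = 8.19e-05 and 2.00e-05). Under the alternatives, the other relatives were followed only within the count of all related genes. Exons of other genes overlap up to 60.6% of the exon bases of a relative tested, so some of these levels are uncertain. All 5 glutaredoxin system genes were called, against 49.6% of all genes. *GLRX*, the cytosolic glutaredoxin, rose from 6.07 ± 0.968 to 13.6 ± 4.18 CPM (mean ± SD, n = 3 per group), or on the log2 scale a change of 1.14 (edgeR adjusted p = 0.000412). The iron-sulfur cluster factors *GLRX3* (-0.87) and *GLRX5* (-0.63), mitochondrial *GLRX2* (-0.63) and glutathione reductase *GSR* (-0.43) were lower on the log2 scale. Of 4 methionine sulfoxide reductases, which depend on thioredoxin, 2 were called (50%, against 49.6% of all genes). *MSRB2* rose (log2 fold change 1.15) and *MSRA* fell (-1.02). The other 2 did not pass, among them the most abundant of the 4 by CPM.

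In the list of thioredoxin clients, 2 of 8 genes were higher and 6 lower, against 24.2% and 25.3% of all genes. The list also holds the glucose transporters *SLC2A1* and *SLC2A3* (log2 fold change -0.36), known as TXNIP targets rather than thioredoxin clients, and both are among the 6. *BSG* was 1 of the 2 genes of the list that rose (log2 fold change 0.36). The ribonucleotide reductase subunits, whose enzyme takes electrons from thioredoxin or glutaredoxin, split. *RRM2B* rose (log2 fold change 2.19), and *RRM2* (-1.94) and *RRM1* (-0.95) fell. Exons of another gene overlap 20.2% of the *RRM2* exon bases. *MAP3K5*, which encodes the kinase ASK1 that reduced thioredoxin holds inactive, fell from 13.8 ± 0.402 to 8.09 ± 0.762 CPM (SD, n = 3 each; log2 fold change -0.77, edgeR adjusted p = 0.000124). In the NADPH supply list, 2 of 13 tested genes were higher and 5 lower, or 53.8% called, close to the 49.6% of all genes. *PGLS* (0.55) and *NNT* (0.34), the mitochondrial transhydrogenase, rose, and *MTHFD1* (-0.85) and *ME2* (-0.54) had the largest falls on the log2 scale.

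**Figure D5:**
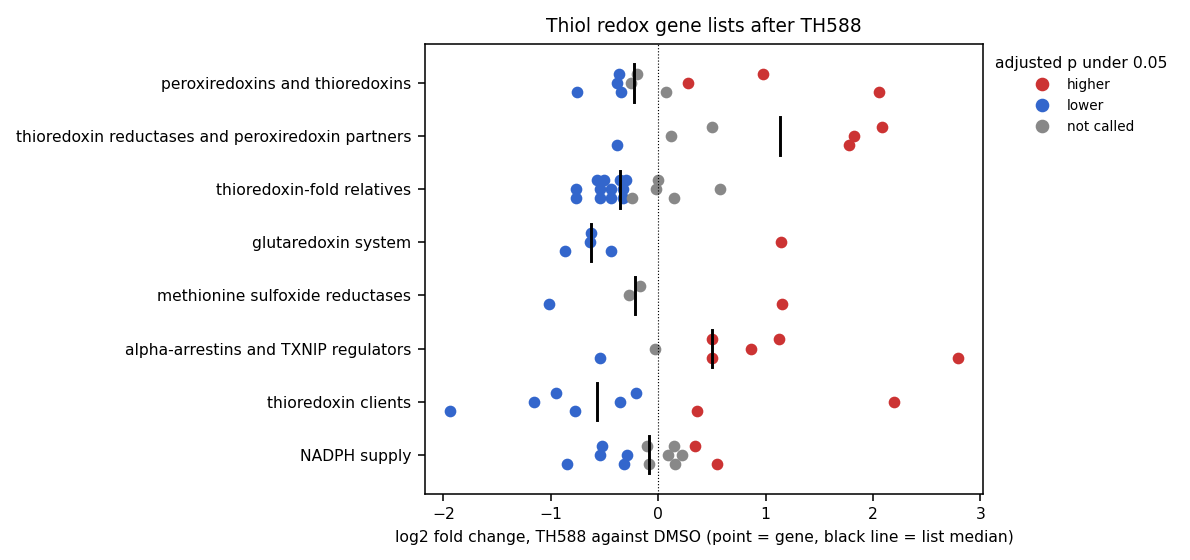
Log2 fold change after TH588 against DMSO (horizontal axis) of each gene tested in the 10 peroxiredoxin and thioredoxin genes and in 7 related lists, coloured by whether the adjusted p was under 0.05, with black lines at the list medians. The thioredoxin-fold relatives lie mostly to the left (12 of 17 lower, 0 higher, median -0.36). The alpha-arrestin list, which also holds *MLXIP*, *MLXIPL* and *MLX*, lies mostly to the right (5 of 7 higher, 1 lower, median 0.50). Of all genes tested, 24.2% were higher and 25.3% lower.

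Over the 6 libraries, the log2 CPM of *TXNIP* was followed most closely by *TMEM63B* (Pearson r = 0.9997), *LPIN1* (0.9997), a phosphatidate phosphatase, and *PABPC1L* (0.9995), out of 9750 genes whose mean log2 CPM reached 2. For *TXN* these were *GCLM* (0.9982), the modifier subunit of the enzyme that begins glutathione synthesis, *PPP5C* (0.9976) and *USP7* (0.9974). For *PRDX1* they were *NEK2* (0.9987), *CHCHD2* (0.9982) and *TFCP2* (0.9970). The 6 points share 2 treatment groups, so r here largely reflects the difference between the groups, and 547, 483 and 257 genes had r above 0.98 with *TXNIP*, *TXN* and *PRDX1*.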

How the data were processed

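RNA of A2780 cells given DMSO or TH588, 3 libraries each, was sequenced after TruSeq v2 preparation, which keeps no strand. According to the methods and the submitters' processing notes, the authors aligned reads with TopHat to GRCh38 and counted them per gene with featureCounts 1.4.6. The deposited values are raw counts per Ensembl gene. The methods name UCSC gene models, and how multi-mapping reads or shared exons were counted is not given in the sources used here. The authors compared the groups with DESeq2.

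Symbols were matched by Ensembl identifier for 57754 of 58336 genes. Counts were fitted with edgeR 4.0.16 in R 4.3.3 (TMM, default low-count filter, quasi-likelihood test, no replicate term) and p-values were adjusted over 15844 genes (Benjamini-Hochberg). The SE was taken as the absolute log2 fold change over the root of the F statistic. Coordinates are those of the authors' table (GRCh38), and promoter sequences are from RefSeq (GRCh38.p14). Likeness of pattern used log2(CPM + 0.5). The fit was also run on simulated counts in which few genes changed, as many rising as falling. That setting differs from these data, so the run does not bear on the scaling or the calls given here.

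The 10 genes and the related lists were chosen with earlier results of these data known. Named are the 10 genes, close partners or paralogs (*TXNRD1*, *SRXN1*, sestrins, *ARRDC3*, *ARRDC4*), up to 2 rises and 2 falls per related list (mean log2 CPM 2 or more), the 3 genes most like *TXNIP*, *TXN* and *PRDX1*, and overlapping genes or pseudogenes. Others (*ARRDC1*, *ARRDC2*, *MLX*, *GLRX2*, *GSR*, *RRM1*, *MAP3K5*, *SLC2A3*, *TXNRD3* and the marker genes) were named after their values were seen. Alternatives were DESeq2 size factors, library size only, removal of the 10 most abundant genes, DESeq2 1.42.0, limma-voom (limma 3.58.1), no filter, a minimum of 10 counts in each library, a replicate block, an adjusted p under 0.01, and each library left out in turn. Replicates of a group differed by more than sampling noise (chi-square per degree of freedom 25.0 to 176.0), so each counted as 1 sample.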

Additional observations from a re-analysis of the deposited data

How the results depend on the processing

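Over 15 alternatives (1 of them a stricter threshold on the same fit), 142 of 150 values of the 10 genes kept both direction and call. With library size as the only scaling, *PRDX4* (-0.24) and *TXNRD2* (-0.26) no longer passed, and the median over all genes went from 0.02 to 0.13, with 60.4% of called genes higher against 48.9%. With no filter *PRDX3* passed at -0.24 and the median over all genes was 0.14. At an adjusted p under 0.01, *PRDX2* (0.27) did not pass. With each library left out in turn, *PRDX2* ranged from 0.20 (without DMSO replicate B, not passing) to 0.34, *PRDX3* from -0.43 (without TH588 replicate A, passing) to -0.14 (without TH588 replicate C), and *TXN2* from -0.028 to 0.23, with a change of sign without DMSO replicate B or TH588 replicate A. The cause was not tested. Ranked by CPM in place of RPKM, *PRDX5* took place 6 rather than 3 among the 10 genes with DMSO. The number called among the 10 genes was between 5 and 8, that of related genes between 35 and 45, and that of all genes between 5831 and 8225. The 33 genes named by rule outside the 10 kept direction in all 495 values and lost the call in 1 (*TFCP2*, library size only). Genes named after their values were seen were not run under the alternatives.

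Libraries with the same letter showed no positive correlation of their deviations from the group mean (-0.17, -0.20 and -0.01 for A, B and C). With 3 libraries per group, these values cannot show whether the letters mark shared experiments. With the replicate block, 7 of the 10 genes and 7195 genes in all were called. A gene with 0 counts could be at up to 0.112 CPM in TH588 replicate A and at up to 0.0276 to 0.0365 CPM elsewhere, counting error only. All 10 genes had at least 877 counts in every library.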
